A study of Mus musculus with 4 samples.

Results

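The genes described here are 7 receptors and 3 ligands of the epidermal growth factor (EGF) and fibroblast growth factor (FGF) systems. They are the receptor genes Egfr, Erbb2, Erbb3, Erbb4, Fgfr1, Fgfr2 and Fgfr3 and the ligand genes Hbegf, Nrg1 and Nrg3. They were taken by name, 10 of the 36528 gene rows of the count tables. The cells came from the cortex of mouse embryos of the C57BL/6 strain at stage E16.5, 2 labelled COP1 KO and 2 labelled HET. COP1 is a ubiquitin ligase. The labels name neither the alleles nor a Cre driver, a title calls the knockout libraries CKO, and HET is not defined. Each embryo gave 1 droplet library that reads the 3′ ends of transcripts, so the library is the replicate. After filtering, 5195 and 4729 cells remained in the COP1 KO libraries and 4545 and 4313 in the HET libraries, and the medians were 4505 and 5134 counts per cell in COP1 KO and 5171 and 5475 in HET.

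ErbB receptors are tyrosine kinases that pair up when a ligand of the EGF family binds. EGFR binds heparin-binding EGF-like growth factor, the product of Hbegf. ERBB4 binds it too, along with the neuregulins, while ERBB2 has no known ligand of its own and ERBB3 has little kinase activity. FGF receptors work in the same way with heparan sulfate proteoglycans as co-receptors. In the developing forebrain, EGFR marks late progenitors that turn to glia, ERBB4 marks GABAergic interneurons, and FGF receptors maintain radial glia, the stem cells of the cortex.

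RefSeq promoter entries of build GRCm38.p6, each 300 bases long from 250 before to 50 after the start site, matched 6 of the 10 genes. The windows of Egfr and Erbb4 are shown because they alone held a match to a motif searched, and both receptors are described by genotype further on. The window of Egfr is chr11:16751953-16752252 on the plus strand, and that of Erbb4 is chr1:69108010-69108309 on the minus strand. Capitals mark matches to CCGGAA on either strand, the core bound by ETS factors, a family that includes known COP1 targets. The AP-1 motif TGANTCA, bound by JUN and FOS proteins, was also searched on both strands, and the motifs do not overlap.
Egfr: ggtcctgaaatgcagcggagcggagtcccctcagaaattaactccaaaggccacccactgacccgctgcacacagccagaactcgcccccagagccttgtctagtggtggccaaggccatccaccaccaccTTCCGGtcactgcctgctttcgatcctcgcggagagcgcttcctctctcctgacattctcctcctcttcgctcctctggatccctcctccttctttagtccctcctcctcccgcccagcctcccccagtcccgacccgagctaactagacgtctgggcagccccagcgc
Erbb4: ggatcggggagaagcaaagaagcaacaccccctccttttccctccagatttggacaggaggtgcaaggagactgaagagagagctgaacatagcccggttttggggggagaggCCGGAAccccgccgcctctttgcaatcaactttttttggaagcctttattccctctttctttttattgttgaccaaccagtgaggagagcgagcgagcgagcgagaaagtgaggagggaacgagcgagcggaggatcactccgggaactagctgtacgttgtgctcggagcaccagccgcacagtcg
Each window held 1 ETS core, which began at position -119 in Egfr and -137 in Erbb4 relative to the start site of its promoter entry, and no AP-1 motif. The annotated Erbb4 gene reaches position 69108576, so its whole window lies inside the gene, after the outermost annotated start. Over 32851 promoter windows of this length, 14.9% held the ETS core and 7.81% held the AP-1 motif. The windows of Erbb2, Fgfr2, Fgfr3 and Nrg3 held neither. A match is a run of letters, and nothing here measured binding.

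Cells were grouped into 28 clusters with the 10 genes left out of the clustering, and clusters were named from marker lists. The names end in "-like", 4 clusters stayed unnamed, and 8 classes had enough cells in every library for a test. The cortical dissection also held striatal-projection-neuron-like and ganglionic-eminence-progenitor-like cells. Levels are CPM, counts scaled to a common total, of the counts summed over the cells of 1 class in 1 library. They are compared within a gene and not between genes, because each gene's 3′ end is captured with its own efficiency. Oligodendrocyte-precursor-like cells numbered 117 and 140 in COP1 KO and 31 and 36 in HET, so the levels in this class rest on few HET counts. The class also carried radial-glia markers, which summed to 11352 and 13649 CPM in COP1 KO and 22255 and 18186 CPM in HET. In radial-glia-like cells the same markers summed to 12793 and 11942 CPM in COP1 KO and 15440 and 16269 CPM in HET. The 2 classes are thus not separated by these markers. The 4 libraries shared 22 to 40 cell barcodes per pair.

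Each receptor had its own distribution over the cell classes, which are ranked here among the 8 tested classes. Fgfr1, Fgfr2 and Fgfr3 were highest in radial-glia-like cells. Fgfr1 there averaged 178 CPM over the 4 libraries (165 to 196), and its next class was oligodendrocyte-precursor-like at 103 CPM (84.3 to 144), with no overlap between the ranges. Fgfr2 averaged 69.6 CPM in radial-glia-like cells (63.6 to 77.2) and 25.6 CPM in oligodendrocyte-precursor-like cells (16.4 to 34.7), again without overlap. Fgfr3 averaged 123 CPM (76.6 to 168) against 75.8 CPM (59.9 to 106), and here the ranges overlapped. Excitatory-neuron-like cells followed for Fgfr1, at 71.9 CPM (69.3 to 74.7), below the oligodendrocyte-precursor-like range. The same neurons averaged 7.64 CPM of Fgfr2 and 5.40 CPM of Fgfr3, below the intermediate-progenitor-like means of 13.1 CPM and 31.5 CPM.

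Erbb4 was highest in cortical-interneuron-like cells, at 188 CPM (147 to 227), and its next class, oligodendrocyte-precursor-like, stood at 24.5 CPM (12.2 to 39.7). In excitatory-neuron-like cells it averaged 2.41 CPM. Of all Erbb4 counts in a library, 56.1% and 44.5% in COP1 KO and 53.3% and 55.3% in HET came from the cortical-interneuron-like class. Egfr had 170 counts in all, and its highest class was oligodendrocyte-precursor-like at 20.2 CPM (9.92 to 28.1), followed by ganglionic-eminence-progenitor-like at 6.58 CPM (3.10 to 11.7) and radial-glia-like at 4.14 CPM (1.73 to 6.20). These neighbouring ranges overlapped. In excitatory-neuron-like cells Egfr averaged 0.102 CPM, from 6 counts. Outside the tested classes, fibroblast-like cells held 18 Egfr counts at 21.1 CPM, and their Fgfr1 averaged 129 CPM. Erbb2 averaged 18.3 CPM in radial-glia-like cells (11.5 to 29.0) and 10.5 CPM in oligodendrocyte-precursor-like cells (4.96 to 18.3). These ranges overlapped, and in COP1 KO alone the precursor class, at 12.2 and 18.3 CPM, was not below radial-glia-like cells, at 11.5 and 16.2 CPM. Erbb3, the receptor of early Schwann cells, had 8 counts in the 4 libraries, 4 and 2 in COP1 KO and 1 and 1 in HET. It entered no test, and no radial-glia-like or oligodendrocyte-precursor-like cell held a count of it.

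Among the ligands, Hbegf had its highest mean in endothelial-like cells, at 176 and 208 CPM in COP1 KO and 168 and 188 CPM in HET, a class too small for a test. Mural-like cells, the contractile cells of vessel walls, had 115 and 391 CPM in COP1 KO and 112 and 97.0 CPM in HET, from 39 counts. Their range spanned that of the endothelial-like cells. Over the tested classes its mean ran from 39.1 CPM in cortical-interneuron-like cells to 5.36 CPM in intermediate-progenitor-like cells, and every neighbouring pair in that order overlapped. The place of radial-glia-like cells in this order differed by genotype, since they stood at 43.0 and 41.0 CPM in COP1 KO and 10.3 and 11.7 CPM in HET. Nrg1, neuregulin 1, was highest in radial-glia-like cells at 88.1 CPM (85.7 to 91.2), just above Cajal-Retzius-like cells at 77.5 CPM (72.8 to 84.3). Intermediate-progenitor-like cells followed at 71.0 CPM (59.8 to 79.0), overlapping with the Cajal-Retzius-like range, and cortical-interneuron-like cells were lowest at 5.33 CPM. Nrg3, neuregulin 3, was highest in Cajal-Retzius-like cells at 26.0 CPM (9.83 to 35.8) and excitatory-neuron-like cells at 24.5 CPM (21.3 to 32.1). The interneuron class with the highest Erbb4 thus had the lowest Nrg1.

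**Figure D1:**
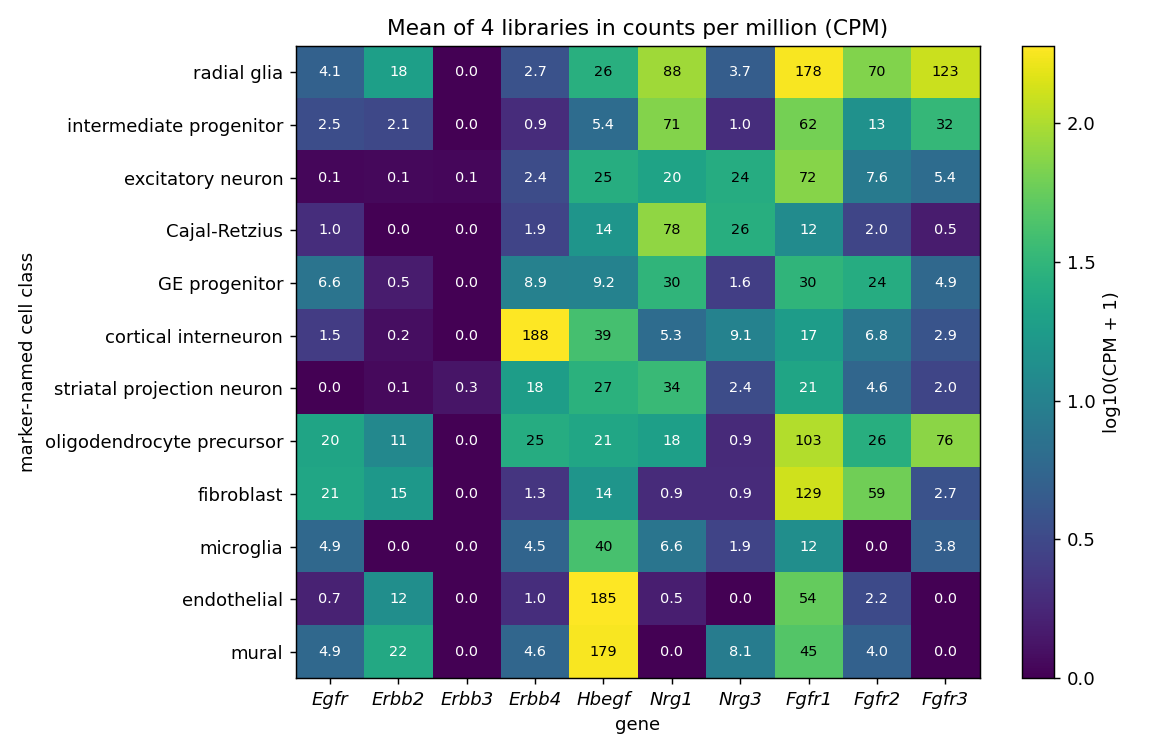
Mean level of each gene (columns) in 12 marker-named classes (rows), as CPM averaged over 4 libraries; the colour is log10(CPM + 1) and the printed number is the CPM. Fgfr1, Fgfr2 and Fgfr3 are highest in the radial glia row, at 178, 69.6 and 123 CPM, Erbb4 in the cortical interneuron row at 188 CPM, and Hbegf in the endothelial row at 185 CPM; microglia, endothelial, mural and fibroblast rows rest on few counts.

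Within the excitatory-neuron-like class, the 3 of 9 clusters with the most Fgfr1 were among the 4 with the least Nrg3. The cluster led by Crym and Nrp1 had 177 and 163 CPM of Fgfr1 in COP1 KO and 212 and 194 CPM in HET. The cluster led by Pdzrn3 had 99.6 and 106 CPM of Fgfr1 in COP1 KO and 94.5 and 105 CPM in HET. Nrg3 was low in both, at 11.5 and 14.1 CPM in COP1 KO and 8.34 and 5.55 CPM in HET in the Crym cluster. The cluster led by Hs3st4 and Nxph3 had 29.6 and 39.7 CPM of Fgfr1 in COP1 KO and 24.3 and 22.1 CPM in HET. Its Nrg3 level was 51.5 and 30.0 CPM in COP1 KO and 42.6 and 41.9 CPM in HET. The 3 clusters with the most Fgfr1 averaged 7.54, 9.87 and 17.9 CPM of Nrg3, and the 3 with the most Nrg3 averaged 28.9, 33.6 and 23.8 CPM of Fgfr1. The clusters were built on variable genes other than the members, so this is a description of the clusters and carries no test.

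**Figure D2:**
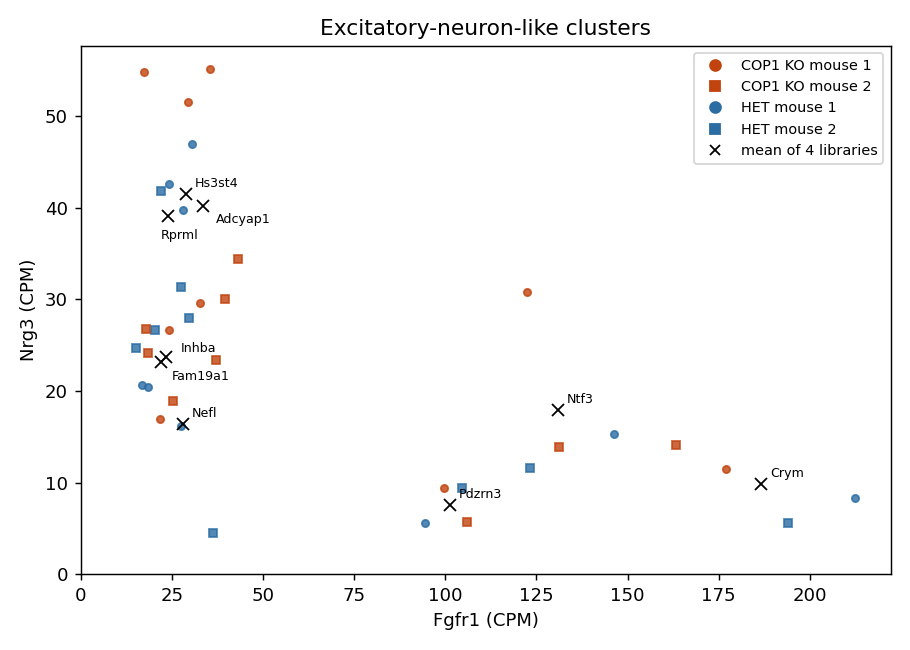
Fgfr1 (x, CPM) against Nrg3 (y, CPM) in the 9 excitatory-neuron-like clusters; small symbols are single libraries (COP1 KO and HET in 2 colours) and crosses are the mean of 4 libraries, labelled by 1 leading gene. The Crym cluster lies at 187 CPM of Fgfr1 and 9.87 CPM of Nrg3, and the Hs3st4 cluster at 28.9 and 41.5 CPM.

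Genes whose profile was most like that of each member were named by Pearson's r of log2(CPM + 1) over the 26 clusters of at least 50 cells, which share libraries and depth. Erbb4 was closest to Gm14204 (r = 0.88), Nxph1 (0.88) and Gad1 (0.87). Erbb2 was closest to Plce1 (0.97), Afap1l2 (0.96) and Tcf7l1 (0.96). Egfr was closest to Ndufa2 (0.89), Tlcd1 (0.88) and Lgals1 (0.88). Fgfr1 was closest to Gys1 (0.83), Copb2 (0.78) and Slc16a1 (0.77), Fgfr2 to Pacsin3 (0.85), Xpo4 (0.84) and Scara3 (0.83), and Fgfr3 to Veph1 (0.89), Gm38438 (0.88) and Sfxn5 (0.88). Hbegf was closest to Gm35348 (0.88), Ssbp4 (0.86) and Dusp2 (0.85), Nrg1 to Zmym1 (0.84), Gm34425 (0.82) and Fzd3 (0.81), and Nrg3 to March4 (0.92), Lrfn5 (0.91) and Sh3gl2 (0.90). Among the members themselves the highest r was 0.73, between Fgfr1 and Fgfr2.

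The genotype comparison asked which of these genes differed between the libraries labelled COP1 KO and HET. Per-library sums were tested with edgeR's quasi-likelihood test, and p-values were Benjamini-Hochberg adjusted over all genes tested, with a threshold of 0.05. In sums over whole libraries none of the 9 members that passed the filter on low counts was called, where 0.0118% of 16977 genes were. Within classes 1 member was called, Hbegf in radial-glia-like cells, where 7 members were tested and 3.07% of 11614 genes were called. No member was called in the other classes, where 0.0134% of all genes tested were called in Cajal-Retzius-like, 0% in cortical-interneuron-like and in excitatory-neuron-like, 0.208% in ganglionic-eminence-progenitor-like, 0.618% in intermediate-progenitor-like, 0.561% in oligodendrocyte-precursor-like and 0.0097% in striatal-projection-neuron-like cells. At an unadjusted p under 0.05, 531 genes stood in the cortical-interneuron-like test and 1322 in the excitatory-neuron-like test. DESeq2 called 1 and 64 genes in these classes. The labels do not say which part of the target gene was removed, so its 3′ tags do not check them. Its row, listed under the older symbol Rfwd2, read 30.5 and 29.7 CPM in COP1 KO and 32.0 and 39.2 CPM in HET.

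Hbegf, the EGFR and ERBB4 ligand, rose in radial-glia-like cells. It stood at 43.0 and 41.0 CPM in COP1 KO (97 and 96 counts), against 10.3 and 11.7 CPM in HET (20 and 27 counts). Both COP1 KO libraries lay well above both HET libraries, and the means were 42.0 ± 1.42 and 11.0 ± 1.01 CPM (SD, n = 2 each). The log2 change was 1.97 (SE 0.207), with an adjusted p of 0.000819 from edgeR's quasi-likelihood test. In excitatory-neuron-like cells, by contrast, Hbegf stood at 23.9 and 27.7 CPM in COP1 KO and 25.8 and 24.6 CPM in HET, with overlapping genotypes and a log2 change of 0.06 (SE 0.0973, adjusted p = 0.852). The class-by-genotype term, which tests the difference between these changes with the library as a block, was 1.92 on the log2 scale (SE 0.231, adjusted p = 5.79e-08, edgeR), and 2.45% of 14958 genes were called for this term. Against ganglionic-eminence-progenitor-like cells, where Hbegf stood at 12.4 and 8.75 CPM in COP1 KO and 4.34 and 11.4 CPM in HET, the term was 1.58 (SE 0.570) and did not pass (adjusted p = 0.379). For that term 0.497% of 11272 genes were called.

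**Figure D3:**
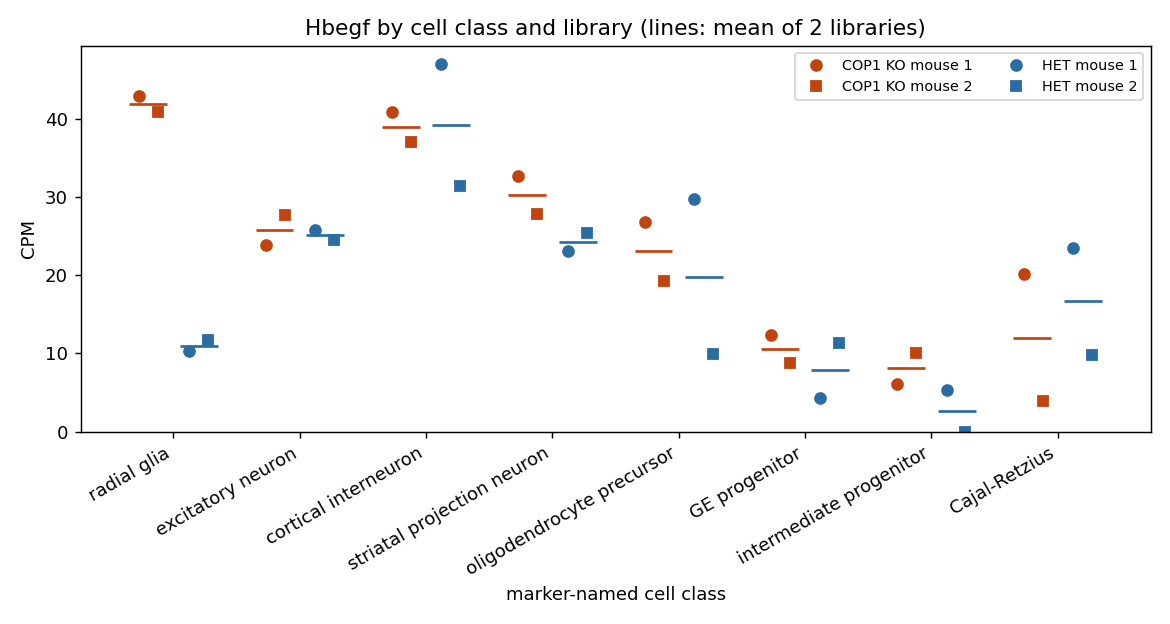
Hbegf level (CPM) in 8 cell classes; each point is 1 library, COP1 KO left of HET, and lines are the mean of 2 libraries. In radial glia the COP1 KO libraries sit at 43.0 and 41.0 CPM and the HET libraries at 10.3 and 11.7 CPM, and in excitatory neurons the libraries of both genotypes lie between 23.9 and 27.7 CPM.

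The share of radial-glia-like cells with a molecule of Hbegf is another view of the same counts and no separate test. After thinning each cell to 2000 counts, it was 6.53% (25 of 383 cells) and 7.32% (24 of 328) in COP1 KO, against 1.43% (4 of 280) and 2.03% (6 of 296) in HET. The exact binomial 95% intervals were 4.27 to 9.49% and 4.74 to 10.7% in COP1 KO, and 0.391 to 3.62% and 0.747 to 4.36% in HET, and they cover counting error only. In intermediate-progenitor-like cells, the class with least Hbegf, the thinned shares were 1.31% and 1.80% in COP1 KO and 1.62% in the first HET library, with 0 of 191 cells in the second, which allows up to 1.57% by a limit of 3 counts (exact upper bound 1.91%). That class had medians of 4580 and 4610 counts per cell in COP1 KO and 5248 and 5023 in HET, and its share is given as the background. Without thinning, 17.1% and 20.4% of radial-glia-like cells held Hbegf in COP1 KO and 6.43% and 8.11% in HET, at class medians of 5229 and 5912 counts in COP1 KO and 5903 and 6756 counts in HET. A cell that held Hbegf held 1.47 and 1.43 counts of it on average in COP1 KO and 1.11 and 1.12 in HET.

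The rise was present in both radial-glia-like clusters. In the cluster led by Aldoc, Hbegf stood at 35.2 and 33.2 CPM in COP1 KO and 10.9 and 9.09 CPM in HET (log2 change 1.83, SE 0.318, adjusted p = 0.00462, edgeR). In the dividing cluster led by Prc1, a mitotic spindle gene, it stood at 55.5 and 50.6 CPM in COP1 KO and 9.67 and 14.5 CPM in HET (log2 change 2.15, SE 0.286, adjusted p = 0.00199, edgeR). Markers of other cells also moved in radial-glia-like cells. Summed vessel wall (mural) markers stood at 39.9 and 58.4 CPM in COP1 KO and 23.6 and 33.3 CPM in HET, endothelial markers at 7.53 and 6.83 CPM against 3.59 and 3.03 CPM, and oligodendrocyte-precursor markers at 64.2 and 103 CPM against 29.2 and 26.0 CPM, with Gpr17 the 1 marker of these at 0. Fibroblast markers summed to 29.2 and 47.4 CPM in COP1 KO and 21.5 and 19.5 CPM in HET. Intermediate-progenitor markers went the other way, at 865 and 848 CPM in COP1 KO and 1133 and 1176 CPM in HET. Neurog2 and Neurog1 of that list fell (log2 changes -0.79 and -2.74, adjusted p = 0.000611 and 0.0281, edgeR). Olig1 and Olig2, oligodendrocyte lineage factors, rose (log2 changes 1.92 and 1.57, adjusted p = 0.0107 and 0.00844, edgeR). Rgs5, a pericyte gene, rose (log2 change 2.28, SE 0.373, adjusted p = 0.0105, edgeR). In radial-glia-like cells with no count of any endothelial, mural, fibroblast or microglia marker, Hbegf stood at 47.0 and 41.0 CPM in COP1 KO and 13.1 and 12.4 CPM in HET (log2 change 1.84, adjusted p = 0.00162, edgeR). In those with no count of an oligodendrocyte-precursor marker it stood at 48.4 and 35.5 CPM in COP1 KO and 11.0 and 12.5 CPM in HET (log2 change 1.88, adjusted p = 0.00419, edgeR). Globin and other erythroid markers summed in radial-glia-like cells to 2476 and 175 CPM in COP1 KO and 178 and 152 CPM in HET. The part of these and the other markers in the Hbegf values was not tested. The sum of 13 immediate early genes, which dissociation can induce, was 1355 and 1280 CPM in COP1 KO and 1399 and 1447 CPM in HET.

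No other class gave a call for Hbegf. In intermediate-progenitor-like cells it stood at 6.15 and 10.0 CPM in COP1 KO and 5.27 and 0 CPM in HET, without overlap, but from 22 counts, and it did not pass the filter there. Cortical-interneuron-like cells had 40.9 and 37.0 CPM in COP1 KO and 47.0 and 31.4 CPM in HET. Striatal-projection-neuron-like cells had 32.7 and 27.8 CPM in COP1 KO and 23.2 and 25.4 CPM in HET, with no overlap but an adjusted p of 0.852 (log2 change 0.34, SE 0.220, edgeR). In whole libraries Hbegf stood at 28.4 and 29.8 CPM in COP1 KO and 25.2 and 23.8 CPM in HET (log2 change 0.27, SE 0.0735, adjusted p = 0.358, edgeR).

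Egfr, the receptor that Hbegf protein binds, was higher in both COP1 KO libraries without passing the test. In whole libraries it stood at 2.04 and 2.51 CPM in COP1 KO (54 and 70 counts), against 0.734 and 0.970 CPM in HET (20 and 26 counts). The log2 change was 1.44 (SE 0.246, adjusted p = 0.202, edgeR). In whole-library sums, more cells of an Egfr-bearing class and more Egfr per cell cannot be told apart. Of the Egfr counts, 42.6% and 34.3% in COP1 KO and 10.0% and 23.1% in HET came from oligodendrocyte-precursor-like cells. With that class left out, Egfr stood at 1.21 and 1.71 CPM in COP1 KO and 0.666 and 0.755 CPM in HET, and the log2 change was 1.06 (SE 0.287, adjusted p = 0.437, edgeR).

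Within classes Egfr had few counts. Radial-glia-like cells had 6.20 and 5.55 CPM in COP1 KO (14 and 13 counts) and 3.08 and 1.73 CPM in HET (6 and 4 counts), a log2 change of 1.34 (SE 0.487, adjusted p = 0.224, edgeR). Only the COP1 KO libraries reached the cutoff of the filter on low counts there. Egfr thus entered that test through the group where it was higher, and the fitted change is no separate support. Oligodendrocyte-precursor-like cells had 28.1 and 23.1 CPM in COP1 KO (23 and 24 counts) and 9.92 and 19.8 CPM in HET (2 and 6 counts), a log2 change of 0.71 (SE 0.505, adjusted p = 0.651, edgeR). Ganglionic-eminence-progenitor-like cells had 7.22 and 11.7 CPM in COP1 KO and 4.34 and 3.10 CPM in HET, from 25 counts, too few for the test. The COP1 KO libraries lay above the HET libraries in each of these classes. The classes share the same libraries, and an exact permutation test of 2 libraries against 2 cannot go below p = 0.333. Cortical-interneuron-like cells had the opposite order, with 1 and 1 Egfr counts in COP1 KO and 2 and 3 in HET. Erythroid markers were also higher in both COP1 KO libraries in oligodendrocyte-precursor-like cells, at 4754 and 4559 CPM in COP1 KO and 213 and 215 CPM in HET. In ganglionic-eminence-progenitor-like cells they stood at 4055 and 3177 CPM in COP1 KO and 205 and 146 CPM in HET. Fibroblast markers summed to 9.77 and 5.79 CPM in COP1 KO and 104 and 112 CPM in HET in oligodendrocyte-precursor-like cells. Oligodendrocyte-precursor markers in that class summed to 2375 and 2389 CPM in COP1 KO and 3452 and 2713 CPM in HET. Its radial-glia markers, given above, were also lower in both COP1 KO libraries. Immediate early genes there summed to 1896 and 2425 CPM in COP1 KO and 3814 and 2805 CPM in HET. The part of these markers in the Egfr and other values of these classes was not tested. Without thinning, 19 of 117 and 19 of 140 oligodendrocyte-precursor-like cells held Egfr in COP1 KO, and 2 of 31 and 5 of 36 in HET, while in excitatory-neuron-like cells the highest share in any library was 0.139%.

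Erbb2, the partner receptor without a ligand, had opposite directions in its 2 main classes. Radial-glia-like cells had 11.5 and 16.2 CPM in COP1 KO and 16.4 and 29.0 CPM in HET (log2 change -0.68, SE 0.310, adjusted p = 0.343, edgeR). Oligodendrocyte-precursor-like cells had 12.2 and 18.3 CPM in COP1 KO, against 4.96 and 6.61 CPM in HET from 1 and 2 counts, and the gene did not pass the filter there. Whole libraries stood at 2.07 and 2.65 CPM in COP1 KO and 1.65 and 2.98 CPM in HET, with overlap.

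Erbb4, the neuregulin receptor of interneurons, was lower in both COP1 KO libraries in whole libraries, in interneuron populations and in oligodendrocyte-precursor-like cells, and no difference passed the test. Whole libraries had 12.1 and 13.5 CPM in COP1 KO and 19.0 and 16.6 CPM in HET (log2 change -0.46, SE 0.113, adjusted p = 0.326, edgeR). Cortical-interneuron-like cells made up 6.26% and 6.83% of cells in COP1 KO and 8.21% and 7.56% in HET, so in these sums fewer such cells and less Erbb4 per cell cannot be told apart. Cortical-interneuron-like cells had 175 and 147 CPM in COP1 KO (180 and 167 counts), against 203 and 227 CPM in HET (276 and 246 counts). The libraries did not overlap, and the log2 change was -0.39 (SE 0.138, adjusted p = 0.780, edgeR). An unnamed cluster led by Htr3a and Sp8, genes of interneurons born in the caudal ganglionic eminence, had 85.3 CPM in each COP1 KO library and 136 and 127 CPM in HET (log2 change -0.60, SE 0.186, adjusted p = 0.377, edgeR). The 2 populations summed gave a log2 change of -0.45 (SE 0.119, adjusted p = 0.372, edgeR). Oligodendrocyte-precursor-like cells had 12.2 and 16.4 CPM in COP1 KO and 29.8 and 39.7 CPM in HET (log2 change -1.26, SE 0.442, adjusted p = 0.298, edgeR), from 6 and 12 HET counts. Only the HET libraries reached the cutoff of the filter on low counts there. Erbb4 thus entered that test through the group where it was higher, and the fitted change is no separate support. Cortical-interneuron markers in the same cells summed to 292 and 303 CPM in COP1 KO and 441 and 486 CPM in HET. Of that list only Npas1 was called, lower in COP1 KO (log2 change -4.50, SE 0.833, adjusted p = 0.0421, edgeR). Its counts per library are not given here. The part of these markers in the Erbb4 value was not tested. After thinning to 2000 counts, 31.1% and 25.6% of cortical-interneuron-like cells held Erbb4 in COP1 KO and 35.4% and 35.9% in HET, with 0.371% to 0.703% in excitatory-neuron-like cells. The fitted change was also negative in excitatory-neuron-like cells (log2 change -0.40, SE 0.209, adjusted p = 0.576, edgeR). In ganglionic-eminence-progenitor-like cells it was -0.40 too (SE 0.549, adjusted p = 0.918, edgeR), so a lower value was not particular to interneurons and precursors. Striatal-projection-neuron-like cells went the other way on average, 16.7 and 22.8 CPM in COP1 KO and 18.5 and 12.1 CPM in HET, with overlap.

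**Figure D4:**
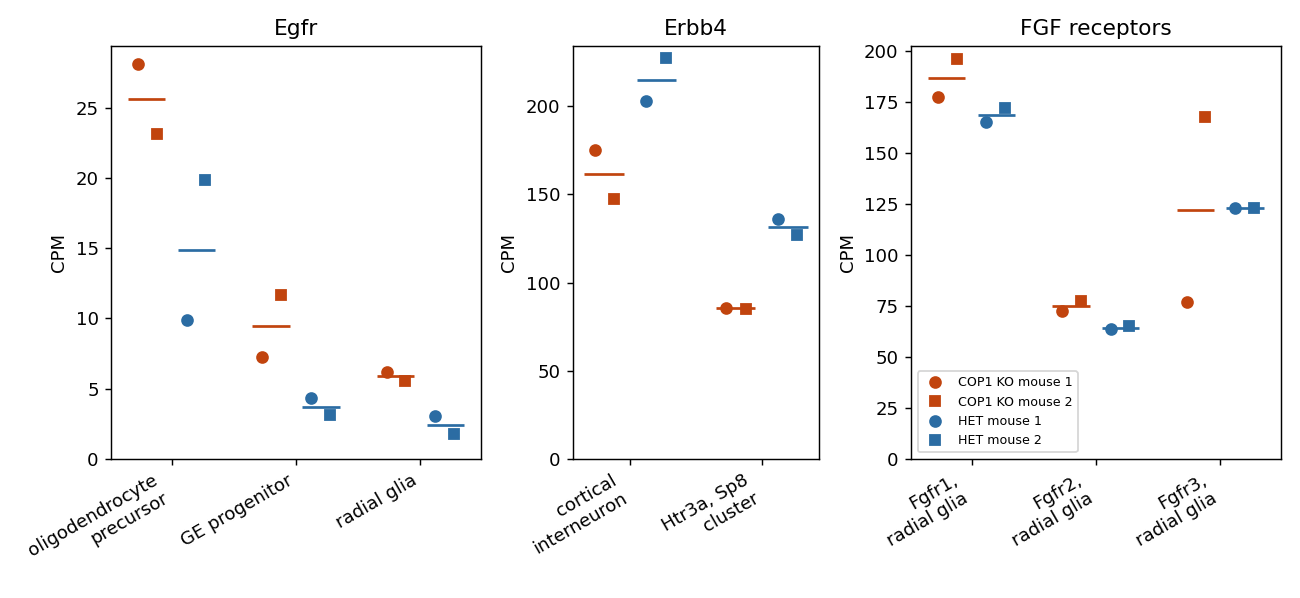
Levels (CPM) of Egfr in 3 classes, Erbb4 in cortical interneurons and in the Htr3a and Sp8 cluster, and the 3 FGF receptors in radial glia; points are libraries, COP1 KO left of HET, and lines are the mean of 2. Erbb4 lies at 175 and 147 CPM in COP1 KO interneurons and 203 and 227 CPM in HET, and for Fgfr3 the COP1 KO libraries lie on either side of the HET libraries, at 76.6 and 168 CPM against 123 and 123 CPM.

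No FGF receptor passed the test in any class. In radial-glia-like cells Fgfr1 had 178 and 196 CPM in COP1 KO and 165 and 172 CPM in HET (log2 change 0.19, SE 0.0869, adjusted p = 0.344, edgeR), without overlap. Fgfr2 there had 72.6 and 77.2 CPM in COP1 KO and 63.6 and 64.9 CPM in HET (log2 change 0.27, SE 0.123, adjusted p = 0.349, edgeR), also without overlap. Fgfr3 split the COP1 KO libraries, with 76.6 and 168 CPM, while the HET libraries had 123 and 123 CPM. Its log2 change was 0.03 (SE 0.259, adjusted p = 0.973, edgeR), but it was 0.47 without the first COP1 KO library (adjusted p = 0.0337) and -0.61 without the second (adjusted p = 0.0186), so the direction was set by which library was kept. The same order held in intermediate-progenitor-like cells, with 16.7 and 42.3 CPM in COP1 KO and 34.3 and 32.9 CPM in HET, and in oligodendrocyte-precursor-like cells, with 59.9 and 106 CPM in COP1 KO and 64.5 and 72.7 CPM in HET. The first COP1 KO library was female and the second male by expression of sex-linked genes, and the HET libraries were 1 of each sex too. The change with sex as a covariate is given in the last section. The part of the erythroid markers in the Fgfr3 values was not tested. The largest fitted changes of these receptors lay in classes with few counts. Fgfr2 in intermediate-progenitor-like cells had 12.3 and 22.3 CPM in COP1 KO and 12.3 and 5.49 CPM in HET, with overlap (log2 change 0.95, SE 0.463, adjusted p = 0.475, edgeR). Fgfr1 in the cluster led by Htr3a and Sp8 had 22.3 and 37.7 CPM in COP1 KO and 19.6 and 16.1 CPM in HET, without overlap (log2 change 0.76, SE 0.4, adjusted p = 0.657, edgeR). In oligodendrocyte-precursor-like cells Fgfr1 had 144 and 95.5 CPM in COP1 KO and 84.3 and 89.2 CPM in HET (log2 change 0.47, SE 0.289, adjusted p = 0.585, edgeR), also without overlap. In excitatory-neuron-like cells Fgfr1 had 70.2 and 69.3 CPM in COP1 KO and 74.7 and 73.5 CPM in HET, a log2 change of -0.06 (SE 0.0531, adjusted p = 0.729, edgeR).

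**Figure D5:**
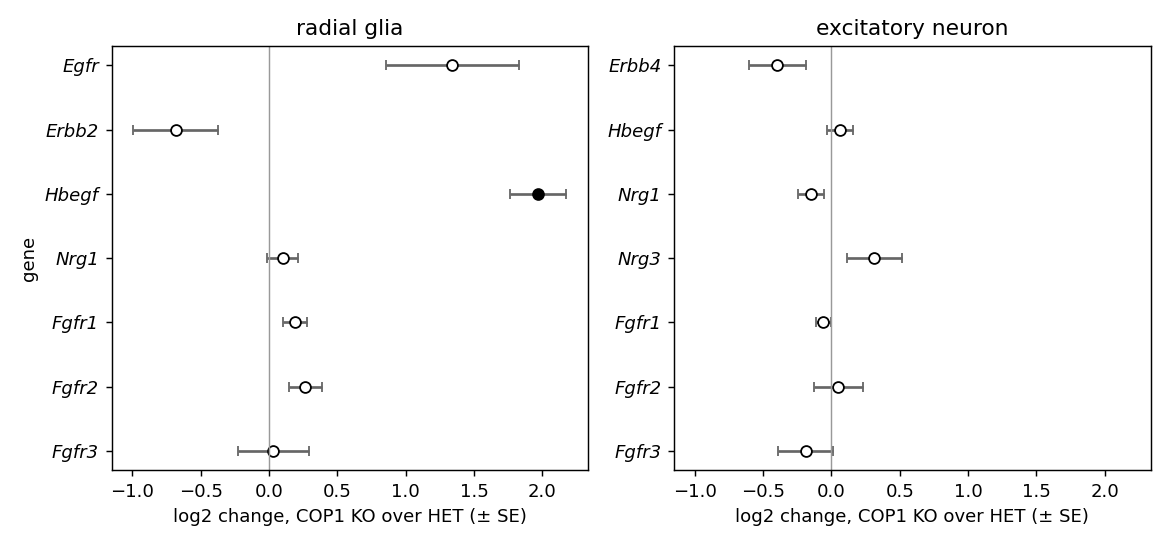
Log2 change (x, COP1 KO over HET, with SE bars from edgeR) of each member that passed the filter in radial glia (left) and excitatory neurons (right); the filled point passed the adjusted threshold. Hbegf in radial glia is at 1.97, and in excitatory neurons it is at 0.06.

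Neither neuregulin passed the test in any class. Nrg1 had 91.2 and 88.3 CPM in COP1 KO radial-glia-like cells and 87.2 and 85.7 CPM in HET (log2 change 0.10, SE 0.111, adjusted p = 0.748, edgeR). In excitatory-neuron-like cells it had 18.0 and 19.7 CPM in COP1 KO and 22.0 and 20.4 CPM in HET (log2 change -0.15, SE 0.0952, adjusted p = 0.639, edgeR). Nrg3 in excitatory-neuron-like cells had 32.1 and 21.6 CPM in COP1 KO and 22.8 and 21.3 CPM in HET. The first COP1 KO library alone stood apart, and the log2 change of 0.31 (SE 0.202, adjusted p = 0.639, edgeR) was 0.59 without the second COP1 KO library (adjusted p = 0.0200) and -0.021 without the first. Cajal-Retzius-like cells had 35.8 and 30.9 CPM of Nrg3 in COP1 KO and 27.5 and 9.83 CPM in HET, from 51 counts (log2 change 0.85, SE 0.455, adjusted p = 0.814, edgeR).

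Other genes of these pathways were taken from fixed lists, described by how many passed the test. Over all 11614 genes tested in radial-glia-like cells, 250 rose and 107 fell, which is the background to these counts. In radial-glia-like cells the 8 other EGF family ligands did not reach the test, and in whole libraries Nrg2, Tgfa and Egf were the only ones tested, none of them called. Of 13 other FGF receptors and co-receptors, 10 were tested in radial-glia-like cells, 2 fell and none rose, with a median log2 change of -0.18 against -0.00347 over all genes. Those that fell were the heparan sulfate proteoglycans Gpc1 and Gpc4. Gpc1, glypican 1, had 34.1 and 37.1 CPM in COP1 KO and 58.4 and 70.5 CPM in HET (log2 change -0.82, SE 0.161, adjusted p = 0.0243, edgeR). Gpc4, glypican 4, had 77.1 and 75.1 CPM in COP1 KO and 118 and 107 CPM in HET (log2 change -0.52, SE 0.114, adjusted p = 0.0389, edgeR). Sdc2 and Flrt3, the other abundant members of that list, had log2 changes of 0.24 and -0.60 (adjusted p = 0.471 and 0.0912, edgeR). For Gpc1 the class-by-genotype term against excitatory-neuron-like cells was also called (-0.65, SE 0.164, adjusted p = 0.0138, edgeR), and for Gpc4 it was not.

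Of 4 intracellular FGF homologous factors, which bind sodium channels and not FGF receptors, all were tested in radial-glia-like cells and 1 fell. Fgf13 had 91.2 and 99.4 CPM in COP1 KO and 150 and 147 CPM in HET (log2 change -0.60, SE 0.0983, adjusted p = 0.0106, edgeR), and its class-by-genotype term against excitatory-neuron-like cells was -0.41 (adjusted p = 0.0207, edgeR). Of 18 FGF ligands 1 was tested there, Fgf15, with 34.1 and 23.0 CPM in COP1 KO and 19.99 and 27.7 CPM in HET (adjusted p = 0.668, edgeR). None of 22 tested adaptors and effectors was called in radial-glia-like cells, with a median log2 change of 0.04, nor were any of 10 tested receptor inhibitors, with a median of 0.23, or 4 tested genes of ligand shedding and trafficking. Among the most abundant in these lists were Map2k2 and Nras, then Spry2, Rnf41 and Cbl, then Adam10, which sheds EGF family ligands, Bace1 and Adam17, which sheds HB-EGF. Adam17 had 24.8 and 24.3 CPM in COP1 KO and 18.5 and 27.7 CPM in HET. In intermediate-progenitor-like cells Pik3r1, a regulatory subunit of PI3 kinase, rose, with 127 and 119 CPM in COP1 KO and 73.0 and 65.0 CPM in HET (log2 change 0.89, SE 0.162, adjusted p = 0.0177, edgeR).

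Of 8 astrocyte lineage markers, 7 were tested in radial-glia-like cells and 3 rose, where 250 of all 11614 genes rose. Gfap, the astrocyte intermediate filament, had 109 and 134 CPM in COP1 KO and 13.3 and 16.0 CPM in HET (log2 change 3.08, SE 0.171, adjusted p = 2.42e-05, edgeR). Aldh1l1 had 222 and 222 CPM in COP1 KO and 95.4 and 112 CPM in HET (log2 change 1.14, SE 0.100, adjusted p = 0.000333, edgeR). Sparcl1 had 115 and 156 CPM in COP1 KO and 54.3 and 49.7 CPM in HET (log2 change 1.43, SE 0.150, adjusted p = 0.000819, edgeR). Gja1 and Slc1a2 had log2 changes of 0.43 and 0.17 and were not called, and for Gja1 and Sparcl1 the class-by-genotype term against excitatory-neuron-like cells was called (0.83 and 1.54, adjusted p = 0.000930 and 2.49e-11, edgeR). That term was not called for Gfap or Aldh1l1. In intermediate-progenitor-like cells Gfap also rose (log2 change 2.35, SE 0.327, adjusted p = 0.00357, edgeR). The radial-glia markers of the naming list summed to 12793 and 11942 CPM in COP1 KO radial-glia-like cells and 15440 and 16269 CPM in HET. Both COP1 KO sums lay below both HET sums, and the part of this shift in the Hbegf result was not tested.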

How the data were processed

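The deposited values were raw counts per gene and cell barcode, whole numbers with no normalization by the authors. Per the submitters' processing notes, reads were aligned with GSNAP to GRCm38; how counts were made is not given in the sources used here. Before filtering, the COP1 KO libraries held 28049007 and 28988265 counts, and the HET libraries 28327090 and 28071382.

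Of 19237 barcodes, 18782 cells were kept: 222 with fewer than 500 genes, 1 with over 10% mitochondrial counts and 232 likely doublets (score over 0.25) were removed. The automatic doublet threshold had called 12 (0.0631%) and was not used. Numbered gene rows without a symbol held 1.69% of counts, and 40 identical row copies were removed. Cells were clustered with scanpy 1.11.5 on 2000 variable genes, without the 10 members, at resolution 1.0, and clusters were named from fixed markers.

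Counts were summed per library and class, filtered with filterByExpr, TMM-scaled and tested with edgeR 4.0.16 in R 4.3.3, with Benjamini-Hochberg adjustment over all genes tested and a threshold of 0.05. The tests were tried on simulated data. DESeq2 1.42.0, library totals, sex as a covariate, other cell filters, thinning depths and leaving out each library were alternatives; those that removed marker-positive cells, took single clusters or left out a class were added after seeing the data. The exact permutation test over 2 libraries against 2 cannot go below p = 0.333. The series' design text gives 4 mice for the 4 libraries, 2 per genotype.

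The text names the 10 members in every class, list genes that passed the threshold, the 3 most abundant tested genes of each list, and the 3 genes most like each member, except a few genes that are not reported here. The members and lists were chosen with earlier results of these data known.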

Additional observations from a re-analysis of the deposited data

Results flagged for a closer look

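The change of Hbegf differed between 2 classes of the same embryos by a test of the difference itself. The class-by-genotype term, radial-glia-like minus excitatory-neuron-like, was 1.92 on the log2 scale (SE 0.231, adjusted p = 5.79e-08, edgeR's quasi-likelihood test with the library as a block). Both COP1 KO libraries were above both HET libraries in radial-glia-like cells, and the genotypes overlapped in excitatory-neuron-like cells.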

How the results depend on the processing

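Hbegf in radial-glia-like cells stayed called under every alternative run, with a log2 change of 1.89 to 2.07 when 1 library was left out, and its term against excitatory-neuron-like cells ran from 1.77 to 2.07. With 1 library left out, the lone sample of an arm is assumed to vary like the other group. The count of members called within classes was 1, and 1 to 3 with a library left out: 2 without COP1 KO replicate 1 (Hbegf and Fgfr3) and 3 without COP1 KO replicate 2 (also Nrg3 in excitatory-neuron-like cells, 0.59). The mean share of radial-glia-like cells with Hbegf, 6.92% in COP1 KO and 1.73% in HET, was 9.83% and 3.13% when thinned to 3000 counts and 18.8% and 7.27% without thinning. Fgfr3 in radial-glia-like cells, 0.03, changed sign with library totals (-0.0056), with sex as a covariate (-0.023), without COP1 KO replicate 2 (-0.61), in cells without vessel, fibroblast or microglia markers (-0.041) and in cells without oligodendrocyte-precursor markers (-0.027), and was 0.47 without COP1 KO replicate 1. Nrg3 in excitatory-neuron-like cells was -0.021 without COP1 KO replicate 1, Fgfr2 in ganglionic-eminence-progenitor-like cells was 0.15 with no doublet removal (-0.23 with it), and Nrg1 in the radial-glia-like cluster led by Prc1 was -0.12 (0.10 in the class). The cause of these was not tested. Beside the called results, 24 single-gene results without a call were followed. They were taken because the libraries of the genotypes did not overlap, apart from Fgfr3 in radial-glia-like and Nrg3 in excitatory-neuron-like cells. Of their 282 alternatives, 272 kept direction and side of the threshold. That choice makes agreement likely, so the count does not measure robustness. The share of all genes without overlap was not counted, so the number of results followed has no background to compare with. DESeq2 called 175 genes in whole libraries and 184 in radial-glia-like cells, against 2 and 357 with edgeR. Few counts limit Egfr, Erbb2 and Erbb3. No paired analysis was possible because the labels give no replicate numbers shared between the genotypes. The fit with sex as a covariate, which sets the female and the male library of each genotype side by side, kept Hbegf in radial-glia-like cells (1.97, adjusted p = 0.00446, edgeR) as the 1 member called.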
